A study of Mus musculus with 10 samples.

Results

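A set of 40 genes of DNA replication and mitosis, chosen by name from the genes that proliferating cells use, was followed through 8 histone-mark peak lists of mouse neural stem and progenitor cells. It makes up 40 of 21883 protein-coding genes. For each gene, the peaks of every list that overlapped the gene body or the 5 kb on either side were taken (RefSeq positions, GRCm38). By role, 10 members license replication origins, 10 work at the replication fork, 3 supply nucleotides, 5 control entry into S phase, 10 act in mitosis, and the other two are the proliferation markers Mki67 and Top2a. Crotonate cells had been given crotonate at 10 mM for 24 h, which cells can turn into crotonyl-CoA, the donor for histone crotonylation. Control cells had received water for the same time. Both groups were cultures from mouse forebrain at stage E13.5, grown at an early passage with 20 ng/ml each of epidermal growth factor and fibroblast growth factor. No genetic change is named in the labels. Native chromatin immunoprecipitation (without crosslinking) gave 1 library per mark and treatment for H3K4me3, H3K9cr (crotonylation of lysine 9), H3K27ac and H3K27me3. Every difference below is between single libraries, so it has no replicate error and could not be tested.

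Replication origins are licensed in G1, when the origin recognition complex, Cdc6 and Cdt1 load the Mcm2 to Mcm7 helicase ring. Cdc45 and the GINS complex then switch the helicase on, and the sliding clamp Pcna, its loader Rfc and the polymerases copy the DNA. Genes of this first wave are known targets of E2F factors, which bind near their starts. Genes of mitosis are switched on later in the cycle and are known for a promoter element called the CHR and for CCAAT boxes, which the factor NF-Y binds. H3K4me3, H3K27ac and H3K9cr are found at active gene starts, and H3K27me3 is the Polycomb mark of silenced genes.

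The promoters below belong to members that the H3K27ac width picked out: Bub1, Rfc3 and Cdc6 had among the lowest ratios of crotonate to control, Tyms had the highest, and Pcna and Cdc20 were among the widest in control. Each sequence runs from 250 bases before the first listed start of the gene to 50 after it. It reads 5′ to 3′ on the gene's strand and is from RefSeq, GRCm38.p6. The listed start of Cdc6 and its whole window lie inside the annotated gene, which begins at chr11:98907709. Capitals mark the letters of 3 motifs: the E2F words TTTCCCGC, TTTCGCGC, TTTGCCGC and TTTGGCGC, the CHR word TTTGAA and the CCAAT box, each searched on both strands. The windows lie at chr2:127831810-127832109, minus strand (Bub1), chr5:151651159-151651458, minus strand (Rfc3), chr11:98907901-98908200, plus strand (Cdc6), chr5:30073576-30073875, minus strand (Tyms), chr2:132253131-132253430, minus strand (Pcna) and chr4:118437294-118437593, minus strand (Cdc20).
Bub1: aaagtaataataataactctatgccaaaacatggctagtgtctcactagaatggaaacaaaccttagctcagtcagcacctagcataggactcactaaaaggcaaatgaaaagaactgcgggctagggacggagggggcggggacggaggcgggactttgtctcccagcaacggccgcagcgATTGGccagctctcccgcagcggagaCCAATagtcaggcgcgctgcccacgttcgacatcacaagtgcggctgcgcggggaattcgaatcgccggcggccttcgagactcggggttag
Rfc3: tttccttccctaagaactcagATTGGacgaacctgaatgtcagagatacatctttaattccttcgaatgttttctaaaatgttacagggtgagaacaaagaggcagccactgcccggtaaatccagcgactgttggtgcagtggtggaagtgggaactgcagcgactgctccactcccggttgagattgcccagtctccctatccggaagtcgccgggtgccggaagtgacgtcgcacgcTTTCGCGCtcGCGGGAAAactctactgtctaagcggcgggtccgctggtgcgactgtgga
Cdc6: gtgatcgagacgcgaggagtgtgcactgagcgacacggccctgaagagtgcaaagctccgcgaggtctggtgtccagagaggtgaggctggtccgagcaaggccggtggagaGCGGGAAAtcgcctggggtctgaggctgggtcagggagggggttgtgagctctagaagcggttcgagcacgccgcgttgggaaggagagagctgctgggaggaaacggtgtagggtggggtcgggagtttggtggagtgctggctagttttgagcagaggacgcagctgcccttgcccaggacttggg
Tyms: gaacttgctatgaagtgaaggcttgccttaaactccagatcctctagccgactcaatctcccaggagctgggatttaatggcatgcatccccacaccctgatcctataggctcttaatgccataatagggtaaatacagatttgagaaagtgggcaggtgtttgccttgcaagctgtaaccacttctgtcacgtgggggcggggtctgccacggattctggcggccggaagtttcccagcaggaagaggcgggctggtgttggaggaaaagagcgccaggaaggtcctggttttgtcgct
Pcna: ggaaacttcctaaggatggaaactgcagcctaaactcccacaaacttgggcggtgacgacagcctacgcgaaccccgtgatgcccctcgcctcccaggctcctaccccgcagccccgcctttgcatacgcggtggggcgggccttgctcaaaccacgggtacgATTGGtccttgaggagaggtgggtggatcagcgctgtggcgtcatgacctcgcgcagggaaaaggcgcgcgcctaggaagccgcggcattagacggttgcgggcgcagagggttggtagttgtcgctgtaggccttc
Cdc20: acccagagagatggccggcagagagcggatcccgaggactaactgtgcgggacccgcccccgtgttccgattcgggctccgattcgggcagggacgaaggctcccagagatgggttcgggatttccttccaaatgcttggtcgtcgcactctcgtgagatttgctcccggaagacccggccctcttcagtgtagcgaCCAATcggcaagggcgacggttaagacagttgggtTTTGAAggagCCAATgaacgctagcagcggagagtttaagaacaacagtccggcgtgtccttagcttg

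Rfc3, a subunit of the clamp loader, holds 2 E2F words and 1 CCAAT box, and Cdc6 holds 1 E2F word. Bub1, a kinase of the spindle checkpoint, holds 2 CCAAT boxes. Cdc20, which activates the anaphase-promoting complex, holds 1 CHR word and 2 CCAAT boxes. Tyms, the enzyme that makes thymidylate, holds none of these words, and Pcna holds 1 CCAAT box. A match is a description of letters in this window, not of binding.

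Of the 40 members, 33 had a start in the RefSeq promoter table, and Mcm4, Gins1, Gins2, Pole, Ccna2, Ccne2 and Aurkb are described by their windows only. An E2F word stood in 11 of these 33 promoters, against 2.92% of 17491 protein-coding promoters. A CHR word stood in 10 of 33 against 16.5%, and a CCAAT box in 25 of 33 against 39.0%. Among the 22 promoters of licensing, fork, nucleotide and S-phase entry genes, 10 held an E2F word and 2 a CHR word, which were those of Mcm2 and Cdc45. Among the 9 promoters of mitosis genes, 1 held an E2F word, that of Cdk1, and 6 held a CHR word, namely those of Bub1b, Aurka, Cdc20, Plk1, Ccnb2 and Cdk1. A CCAAT box stood in 15 of the 22 and in 8 of the 9. Words of 2 motifs overlapped in 1 member promoter, and 5 member promoters held none of the 3 motifs.

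**Figure D1:**
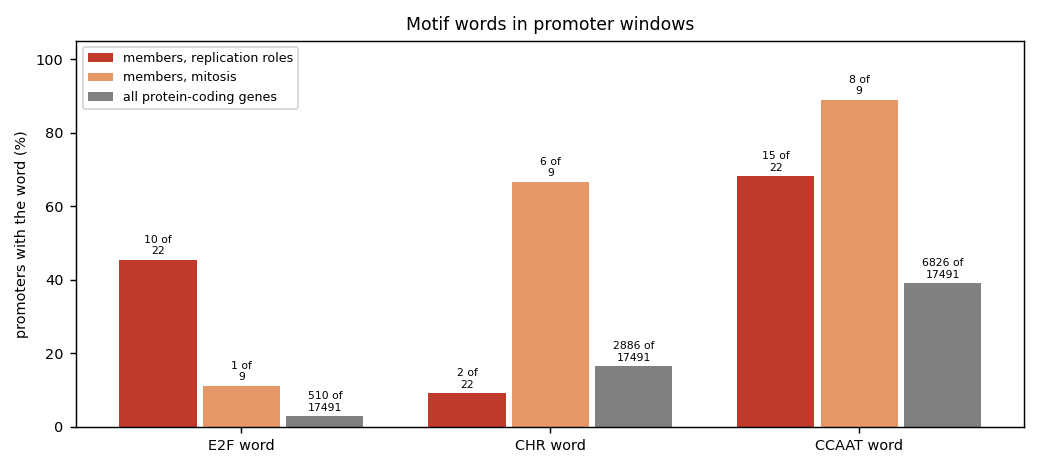
Percentage of promoter windows (vertical axis) that hold an E2F, CHR or CCAAT word on either strand, for members with replication roles (22 promoters), members of mitosis (9) and all protein-coding genes (17491), with the counts above the bars. E2F words stand in 10 of 22 replication promoters and CHR words in 6 of 9 mitosis promoters.

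The H3K4me3 list held 18001 peaks in crotonate and 17322 in control. H3K9cr had 32666 and 31905, H3K27ac 59868 and 52922, and H3K27me3 34707 and 26031. The number of reads behind each list is not given in the sources used here. As a stand-in for depth, the lowest background pileup that any H3K4me3 peak implied was 2.87 in crotonate and 2.91 in control. It was 3.20 and 3.74 in the H3K9cr lists, 2.68 and 3.11 in the H3K27ac lists, and 2.67 and 2.69 in the H3K27me3 lists. Median H3K27ac peaks were 625 bp wide in crotonate and 881 bp in control. The part that depth or peak calling had in the differences below was not tested. Per the labels, the H3K4me3 and H3K27me3 antibodies had other vendors in crotonate than in control, the other marks have a vendor in control only, and catalogue numbers were the same. All 8 neural stem and progenitor markers looked up, among them Sox2, Nes and Pax6, had H3K4me3 and H3K27ac peaks in both treatments. H3K4me3 also lay at 5 of 5 neuronal markers in both treatments, and at 2 of 4 oligodendrocyte markers in crotonate against 4 of 4 in control. Of the 3 astrocyte markers 2 had it in both treatments, as did 2 of the 4 microglial markers, and it lay at 2 of 4 endothelial markers in crotonate against 1 of 4 in control. H3K27ac was not confined to the stem and progenitor markers either. It lay at 4 of 5 neuronal markers in crotonate and 5 of 5 in control. All 4 oligodendrocyte markers, all 3 astrocyte markers and 3 of 4 microglial markers had H3K27ac in both treatments. Of the 4 endothelial markers, 3 had it in crotonate and 2 in control. The microglial marker Cx3cr1 had no peak of any mark.

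All 40 members carried H3K4me3, H3K9cr and H3K27ac in crotonate, and all 40 carried them in control, so no member had any of these marks in 1 treatment only. Over all protein-coding genes, 1.84% had H3K4me3 in 1 treatment only, 2.47% H3K9cr and 4.23% H3K27ac. Of all genes, 68.1% had H3K4me3 in crotonate and 66.8% in control, 70.5% and 69.3% had H3K9cr, and 68.5% and 67.7% had H3K27ac.

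H3K27ac covered less sequence in crotonate at most members. The covered width of a gene is the summed width of all its peaks of a mark. H3K27ac was narrower at 26 members and wider at 14, where 70.6% of all genes were narrower. A difference is called large here when the smaller of the widths was under 0.8 of the other, and by that limit H3K27ac was narrower at 10 members and wider at 3. Over the 14434 genes with H3K27ac in both lists, 30.5% were narrower and 10.5% wider past this limit, so neither share among the members stood above that of all genes. The median log2 ratio of crotonate to control was -0.13 for the members and -0.17 for all genes.

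Mitosis genes held the lowest value. Bub1 had 964 bp of H3K27ac in crotonate and 1609 bp in control, as 1 peak in each list (chr2:127831368-127832331 in crotonate and chr2:127830930-127832538 in control, over the gene's start). Its pileup, the number of fragments over the summit, was 36 in crotonate and 62 in control. Cdc20, Birc5 (survivin, of the chromosomal passenger complex) and Ccnb2 (cyclin B2) were also narrower past the 0.8 limit, so 4 of 10 mitosis genes were and 0 were wider. Cdc20 had 4244 bp in crotonate and 5445 bp in control, the widest control value of any member. The control sum includes a flank peak of 1971 bp over the start of Elovl1, a neighbouring gene. The crotonate sum includes the partner of that peak, of 1540 bp, and another flank peak of 452 bp. Aurkb, the kinase of the chromosomal passenger complex and among the 3 widest in control, had 4879 bp in crotonate and 5430 bp in control, a difference within the limit. Plk1 (polo-like kinase) and Cdk1 were the only mitosis genes with more H3K27ac width in crotonate, at 3105 bp against 2885 bp and 3052 bp against 2915 bp.

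At the replication fork, H3K27ac width moved both ways. Rfc3 had 1523 bp in crotonate and 2257 bp in control, again as 1 peak in each list (chr5:151650321-151651843 in crotonate and chr5:151649745-151652001 in control). That peak had a pileup of 95 in crotonate and 82 in control, where the median pileup of the whole list was 17 and 23. Pcna had 4206 bp in crotonate and 5412 bp in control, and Prim1, the primase subunit, had 3594 bp and 4555 bp. These sums include flank peaks over the starts of other genes. At Pcna, 1866 bp in crotonate and 2135 bp in control lay over the start of Tmem230. At Prim1, 2998 bp and 3751 bp lay over that of Naca, and the peak at its own start had 596 bp and 804 bp. In the other direction, Pole (the catalytic subunit of polymerase epsilon) had 2944 bp in crotonate and 2217 bp in control, and Cdc45 had 3155 bp and 2496 bp. Of the 10 fork genes, 3 were narrower and 2 wider past the 0.8 limit.

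Among licensing genes, Cdc6 and Mcm6 were narrower past the 0.8 limit and 0 of the 10 were wider. Cdc6 had 3028 bp of H3K27ac in crotonate and 4174 bp in control, and Mcm6 had 3211 bp and 4296 bp. Of the genes that control S-phase entry, only Ccne2 (cyclin E2) was past the 0.8 limit, at 2137 bp in crotonate and 2977 bp in control. Tyms had the highest ratio of all members, with 3400 bp in crotonate and 2346 bp in control. Mki67 and Top2a had 2786 bp and 1919 bp in crotonate, against 3475 bp and 2105 bp in control.

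The 3 members counted as wider gained their width away from the start. Pole had additional crotonate peaks of 843 bp and 321 bp in its body, and Cdc45 had additional peaks of 313 bp and 639 bp in its body. Tyms had 3 H3K27ac peaks in each list. A peak in its body was 1208 bp wide in crotonate (chr5:30045526-30046733) and 315 bp in control, and a peak of 741 bp beyond its 3′ end (chr5:30033942-30034682) had no partner in the control list. A control peak of 398 bp in the body of Tyms likewise had no partner in the crotonate list. At their own starts, the H3K27ac peak of Tyms was 1451 bp wide in crotonate and 1633 bp in control, and that of Cdc45 was 2203 bp and 2496 bp. Counting only the strongest peak of each window, 0 members were wider past the 0.8 limit.

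**Figure D2:**
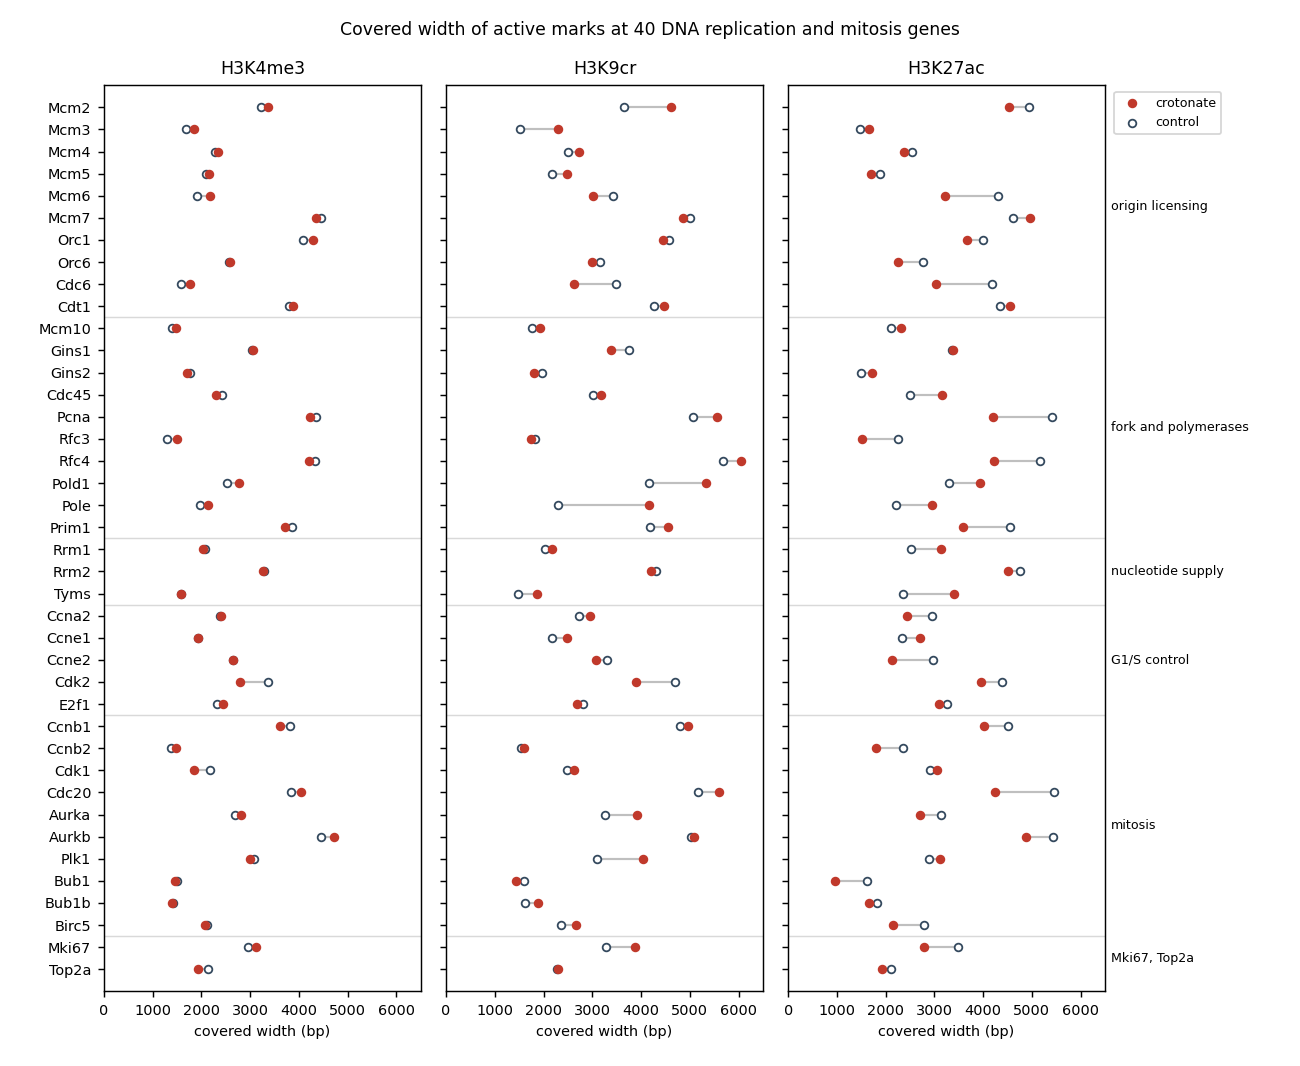
Covered width in bp (horizontal axis) of H3K4me3, H3K9cr and H3K27ac at each of the 40 members, grouped by role, with crotonate as filled red points and control as open points, 1 library each. H3K4me3 points nearly coincide, whereas H3K27ac lies to the left in crotonate at 26 members.

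The H3K27ac peak at the gene's own start reached less far on both sides in crotonate, at the members about as often as at all genes. Taking for each of the 33 members with a known start the strongest peak within 500 bp of it, the median width was 2045 bp in crotonate and 2302 bp in control. It was narrower past the 0.8 limit at 11 of 33 members, against 32.8% of 9542 genes measured the same way, and wider at 0. The downstream edge lay nearer to the start in crotonate at 25 members (75.8%) and the upstream edge at 26 (78.8%), against 77.4% and 77.9% of all genes. The median shift was -167 bp for the downstream edge and -54 bp for the upstream edge in the members, against -121 bp and -93 bp in all genes.

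The shift was uneven between members. The downstream edge of H3K27ac shifted by -1118 bp at Cdc20, -883 bp at Pcna, -711 bp at Mcm6, -576 bp at Rfc3, -526 bp at Mcm2 and -515 bp at Ccnb2, a negative value being nearer to the start in crotonate. At Cdc6 and Mcm6 the single control peak at the start overlaps 2 crotonate peaks, which 9.02% of all genes also showed. Cdc6 had crotonate peaks of 686 bp (chr11:98906886-98907571) and 684 bp (chr11:98907811-98908494), the second of them at the listed start, against 1 control peak of 1665 bp (chr11:98906904-98908568). The crotonate list thus has a gap there and reaches no less far upstream. The annotated 5′ end of Cdc6 (chr11:98907709) falls in that gap. Mcm6 had crotonate peaks of 1395 bp at the start and 359 bp further into the gene (chr1:128358150-128358508), against 1 control peak of 2302 bp (chr1:128358096-128360397). The -711 bp at Mcm6 is thus the edge of the peak at the start alone, and the further peak reaches nearly as far as control. Both genes are counted above by the peak at the start only. At Bub1 the upstream edge shifted by -207 bp and the downstream edge by -438 bp. In Mki67 and Ccne1 (cyclin E1) both edges lay within 12 bp of each other between the lists, and Plk1 reached 205 bp further into the gene in crotonate.

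**Figure D3:**
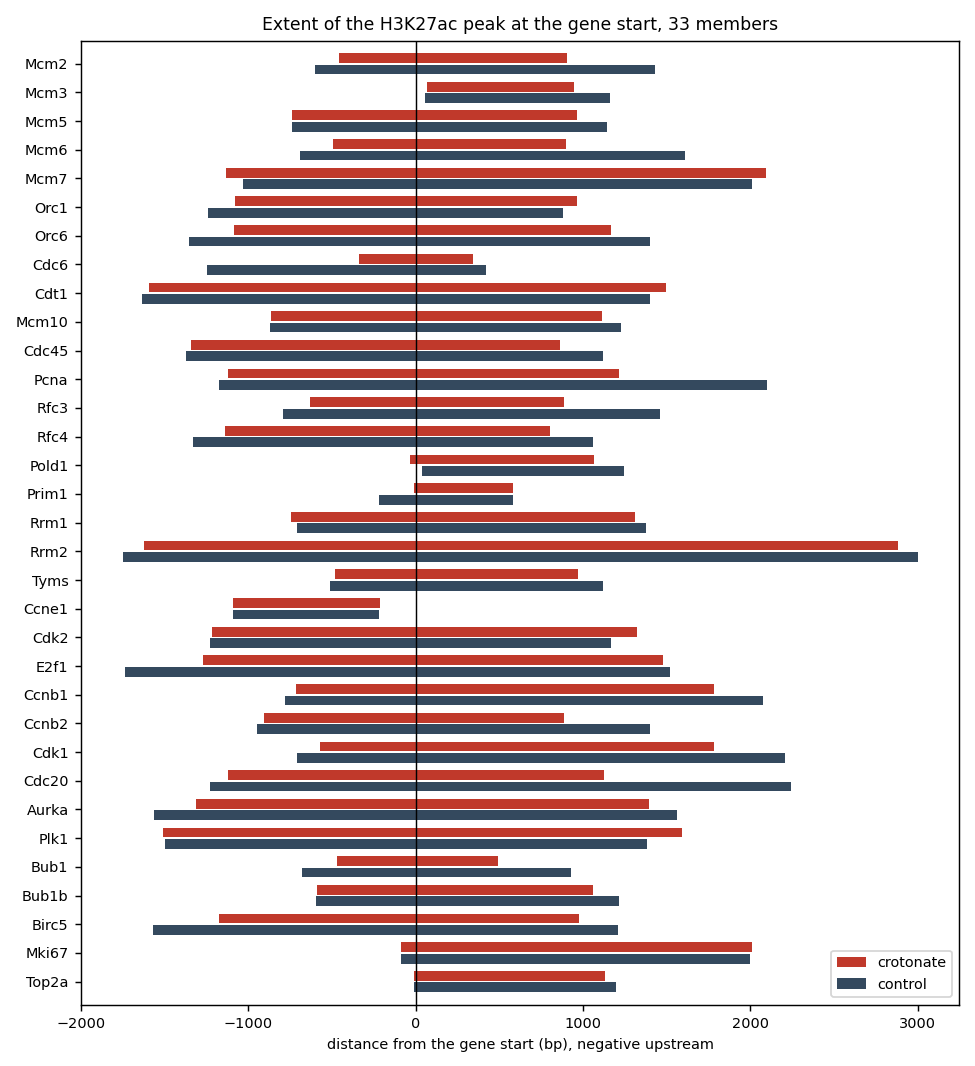
Extent of the strongest H3K27ac peak within 500 bp of the gene start, in bp from the start (horizontal axis, negative upstream), for 33 members, with crotonate as the upper red bar and control as the lower dark bar, 1 library each. The downstream end lies nearer to the start in crotonate at 25 members, furthest so at Cdc20 and Pcna.

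H3K9cr width went the other way. It was wider in crotonate at 27 members and narrower at 13, where 52.4% of all genes were wider, with a median log2 ratio of 0.09 against 0.01 for all genes. Past the 0.8 limit it was wider at 6 members and narrower at 1, where 9.56% of 15032 genes were wider and 9.67% narrower. Pole had the highest ratio, with 4173 bp in 4 peaks in crotonate and 2297 bp in 1 peak in control. Mcm3, a helicase subunit, had 2304 bp in crotonate and 1510 bp in control, as 1 peak in each list. Plk1 had 4039 bp and 3105 bp, Pold1 (the catalytic subunit of polymerase delta) 5338 bp and 4154 bp, Mcm2 4617 bp and 3653 bp, and Tyms 1855 bp and 1474 bp. Cdc6 was the member past the 0.8 limit in the other direction, with 2626 bp in 3 peaks in crotonate and 3496 bp in 4 peaks in control. Cdk2, Mcm6 and Gins1 had the next lowest ratios, and each lay within the limit. For the peak at the own start, H3K9cr was wider past the 0.8 limit at 4 of 33 members and narrower at 1. Of 10442 genes measured the same way, 5.84% were wider and 4.90% narrower. The ratio at the own start was 1.10 for Pold1 and 1.11 for Mcm2, both within the limit.

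At 16 of 40 members, H3K27ac was narrower and H3K9cr wider in crotonate, against 4527 of 13544 genes (33.4%) with all 3 active marks in both lists.

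H3K4me3 width barely differed. It was past the 0.8 limit at 0 of 40 members in either direction, where 1.11% of 14559 genes were narrower and 9.18% wider, and its median log2 ratio was 0.01 against 0.05 for all genes. The ratios of crotonate to control ran from 0.83 at Cdk2 to 1.15 at Rfc3. Cdk2 had 2786 bp of H3K4me3 in crotonate and 3357 bp in control, Cdk1 1853 bp and 2179 bp, Top2a 1920 bp and 2140 bp, and Ccnb1 (cyclin B1) 3611 bp and 3808 bp. Mcm6 and Rfc3, at the upper end, had 2182 bp and 1491 bp in crotonate, against 1917 bp and 1297 bp in control. Ratios of 9 of the 10 licensing genes were above 1 for H3K4me3, as were those of 69.4% of all genes.

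The strength of the marks was compared by rank, since pileups of separate libraries are not on one scale. The strongest peak of each window was given its percentile within its own list by -log10 q-value, 100 being the strongest, and control was subtracted from crotonate. A rank tells where a peak stands among the other peaks of its list and not how much of the mark is there. The median percentile of the members for H3K4me3 was 74.98 in crotonate and 79.3 in control, against 68.3 and 67.0 for all genes with the mark. For H3K9cr it was 91.5 and 85.7, against 81.6 and 81.0 for all genes. For H3K27ac it was 93.9 and 88.9, against 88.3 and 87.1.

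H3K4me3 stood lower within its list in crotonate. The percentile was lower at 30 of 40 members, against 39.2% of all genes, and the median difference was -1.83 points, against 1.29 points for all genes. Past 5 points, 13 members were lower and 3 higher, where 9.88% of all genes were lower and 24.6% higher. Bub1b, the checkpoint protein BubR1, had the largest difference, at the 66.4th percentile in crotonate and the 87.6th in control. Its pileup was 612 in crotonate and 832 in control, and its fold enrichment over local background 91.9 and 213. Bub1 stood at 65.3 and 75.3, and Gins1, a subunit of the GINS complex, at 68.0 and 77.1. The strongest H3K4me3 peak of Gins1 lies in its flank (chr2:150903656-150905323 in crotonate), outside the annotated gene. Also lower past 5 points were 5 of 10 licensing genes (Mcm3, Mcm4, Mcm5, Orc1 and Cdc6), Rrm1 and Rrm2 (the subunits of ribonucleotide reductase), Ccna2 (cyclin A2), Cdc20 and Mki67.

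Tyms stood out in the other direction, at the 76.4th percentile for H3K4me3 in crotonate and the 68.4th in control. Rfc3 stood at 75.7 and 69.4, and Cdk2 at 96.3 and 90.3. The strongest H3K4me3 peak in the Cdk2 window covers the start of Rab5b, a neighbouring gene, in both lists. The peak at the own start of Cdk2 went the other way, at 86.2 in crotonate and 88.7 in control.

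H3K9cr stood higher within its list in crotonate at 32 of 40 members, against 57.9% of all genes. The median difference was 3.57 points, against 0.63 points for all genes. Past 5 points, 14 members were higher and 0 lower, where 18.7% of all genes were higher and 8.25% lower. Plk1 stood at 88.5 in crotonate and 78.7 in control, Mcm2 at 95.4 and 85.8, and Mcm3 at 83.7 and 74.1. The pileup at these peaks was nevertheless lower in crotonate, as across the whole list, whose median peak had a pileup of 41 in crotonate and 74 in control: Plk1 had 346 and 508, Mcm2 497 and 573, and Mcm3 287 and 366. Cdc20, Gins1 and Bub1 had the lowest differences, at -3.13, -1.94 and -1.94 points, all within 5 points.

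H3K27ac likewise stood higher at 31 of 40 members, against 61.1% of all genes, with a median difference of 2.84 points against 0.93 points for all genes. Past 5 points, 11 members were higher and 0 lower, where 21.3% of all genes were higher and 9.35% lower. The share of members that were higher, 27.5%, was near that of all genes. Gins2, a GINS subunit, stood at 94.9 in crotonate and 80.2 in control, Rfc3 at 94.7 and 81.7, and Ccnb1 at 94.3 and 83.2. The pileup was 96 in crotonate and 80 in control at Gins2, 95 and 82 at Rfc3, and 92 and 79 at Ccnb1. Orc1, the largest origin recognition subunit, stood at 93.7 and 98.1, Cdt1 at 90.8 and 93.6, and Bub1 at 75.1 and 77.6.

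**Figure D4:**
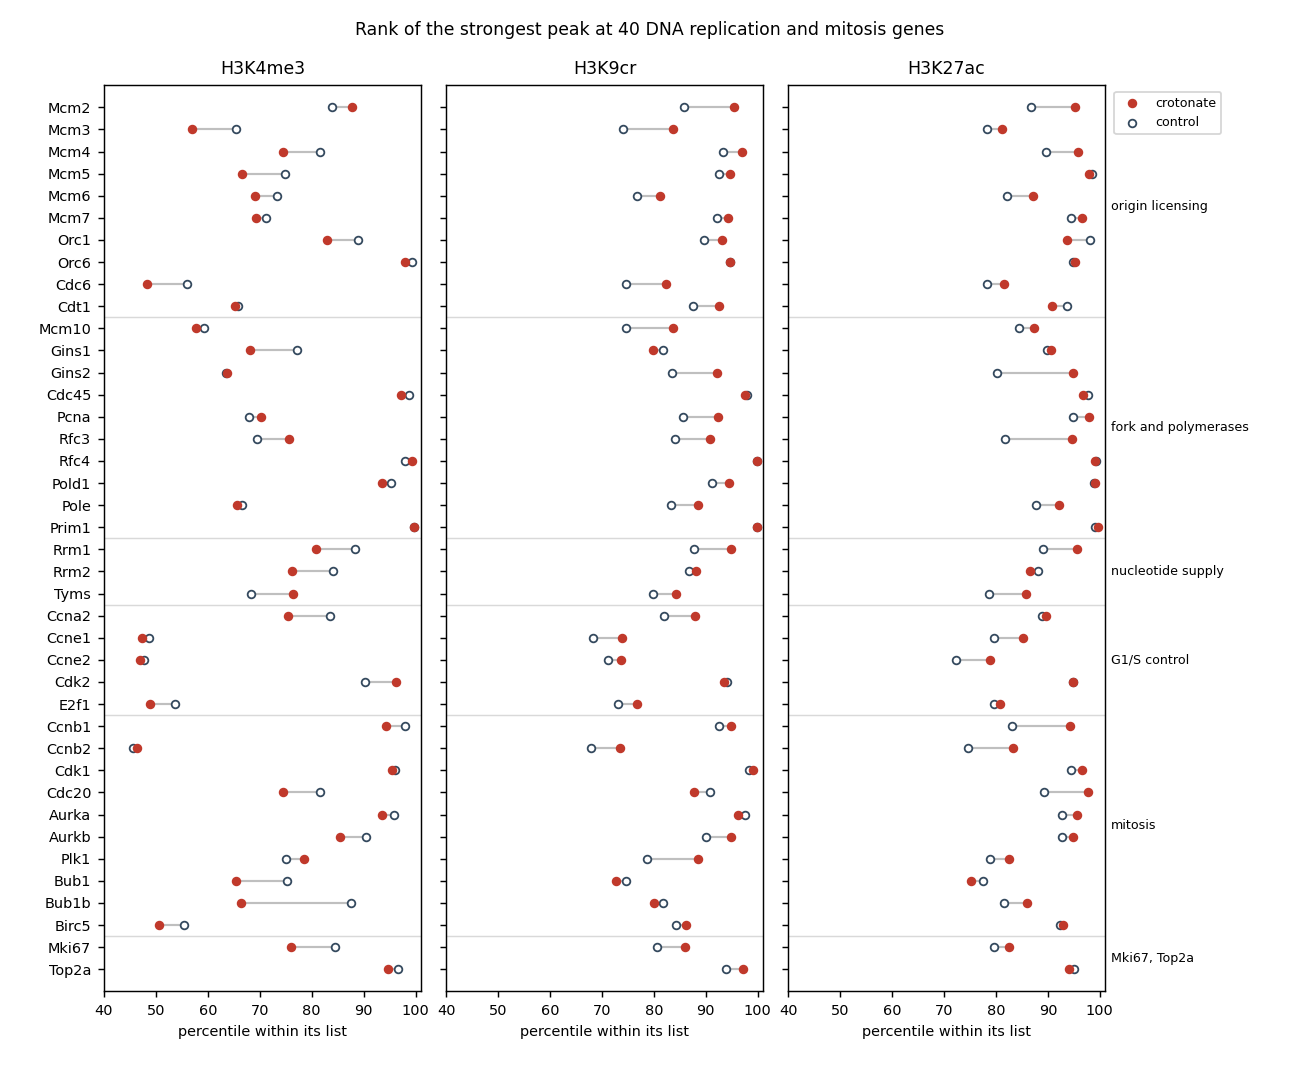
Percentile of the strongest peak of each member within its own list (horizontal axis, 100 the strongest) for H3K4me3, H3K9cr and H3K27ac, with crotonate as filled red points and control as open points, 1 library each. Crotonate lies to the left for H3K4me3 at 30 members, and to the right for H3K9cr at 32 and for H3K27ac at 31.

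At a large share of the members the 3 marks differed in direction. At 18 of 40 members (45.0%) H3K4me3 stood lower while H3K9cr and H3K27ac both stood higher, against 13.0% of the 13544 genes with all 3 marks in both lists. These 18 were Mcm3, Mcm4, Mcm6, Mcm7, Mcm10, Cdc6, Pold1, Pole, Rrm1, Mki67, Ccna2, Ccnb1, Ccne1, Ccne2, Cdk1, Aurkb, Birc5 and E2f1. The Pold1 values are those of a peak over the start of Nr1h2, a neighbouring gene. At its own start Pold1 did not show the pattern, as H3K4me3 stood at 58.5 in crotonate and 56.6 in control. The pattern was not recounted at own starts. Both H3K9cr and H3K27ac were higher past 5 points at 6 members (15%), against 6.64% of the same 13544 genes. The 6 were Mcm2, Gins2, Rfc3, Rrm1, Ccnb2 and Ccne1.

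By role, the median H3K4me3 difference was -5.10 points in licensing, -0.48 at the fork, -7.35 in nucleotide supply, -1.37 in S-phase entry, -4.36 in mitosis and -5.26 for Mki67 and Top2a. The 3 nucleotide genes ran from -8.00 to 8.04 points. In the same order, the H3K9cr medians were 4.13, 4.29, 4.59, 3.68, 1.35 and 4.34 points. Those of H3K27ac were 2.57, 1.87, 6.52, 0.99, 3.26 and 0.96 points. With 10 genes or fewer per role and 1 library per treatment, these medians are descriptions and no difference between roles was tested.

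The members were also set beside genes of like control width and of like control rank. Among genes whose control width was at or above the members' median, 5 of 20 members were lower past 5 points for H3K4me3, against 11.3% of 5363 genes. In that comparison 4 of 20 were higher for H3K9cr, against 7.88% of 5695 genes, and 4 of 20 for H3K27ac, against 13.7% of 7063 genes. The comparison by rank was added after the data were seen. Of the 20 members within the interquartile range of the members' control percentiles for H3K4me3, 11 were lower past 5 points, against 17.4% of the 5100 genes in that range. For H3K9cr, 8 of 20 members were higher, against 13.6% of 4777 genes, and for H3K27ac 7 of 20, against 15.2% of 6318 genes.

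**Figure D5:**
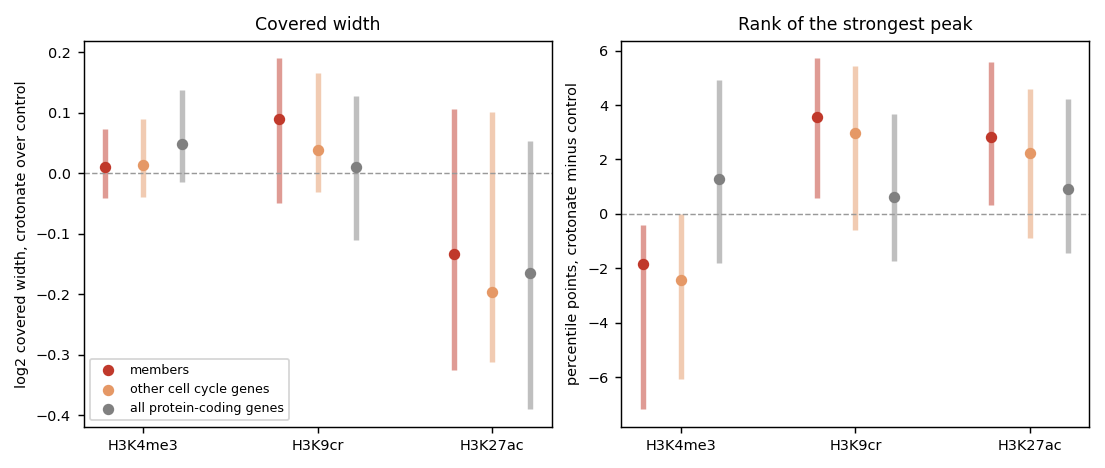
Median (points) and interquartile range (bars) of the log2 ratio of covered width (left) and of the percentile difference (right), crotonate against control, for the members, 54 other cell cycle genes and all protein-coding genes with the mark in both lists. The members' median rank difference is -1.83 points for H3K4me3, 3.57 for H3K9cr and 2.84 for H3K27ac.

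Some windows hold more than the member. Another protein-coding gene overlapped the window of 27 members, and 13 had none there. The strongest peak covered the member's own start in both lists at 25 members for H3K4me3, 27 for H3K9cr and 25 for H3K27ac, of the 33 with a known start. At Prim1 it covers the start of Naca in all 6 active-mark lists, at Rfc4 that of Eif4a2 for H3K4me3 and H3K9cr, and at Pold1 that of Nr1h2 in all 6. The strongest peak was not the same one in both lists for H3K4me3 at Mcm7, Cdt1 and Cdc20, for H3K9cr at Cdt1, and for H3K27ac at Gins1, Cdk2, Cdc20 and Aurkb.

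Restricted to the peak at the member's own start, the median differences were -2.50 points for H3K4me3, 3.46 for H3K9cr and 2.89 for H3K27ac. For H3K4me3, 10 of 33 members were lower past 5 points and 3 higher, where 10.1% of 10319 genes were lower and 24.8% higher. For H3K9cr, 12 were higher and 0 lower, where 18.7% of 10442 genes were higher and 8.07% lower. For H3K27ac, 9 were higher and 0 lower, where 19.0% of 9542 genes were higher and 9.33% lower. In the 12 members left when those with another gene in the window and Prim1 are set aside, the median differences were -4.93 points for H3K4me3, 2.72 for H3K9cr and 2.07 for H3K27ac.

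Active-mark peaks found in 1 treatment only were no more common in the members' windows than in the whole lists, and for H3K9cr in crotonate the shares were near each other. For H3K4me3, 1 of 54 crotonate peaks and 0 of 53 control peaks had no partner, against 6.88% and 2.81% of the whole lists. For H3K9cr, 9 of 67 crotonate peaks and 4 of 61 control peaks had none, against 15.3% and 15.1%. For H3K27ac, 20 of 92 crotonate peaks and 5 of 75 control peaks had none, against 30.1% and 25.3%. All were weak or of middle strength: the strongest unshared H3K27ac peak, the 843 bp peak in the body of Pole, stood at the 61.7th percentile, with a pileup of 21. Of the 20 unshared crotonate H3K27ac peaks, 12 lay in gene bodies and 8 in flanks, at widths of 222 to 843 bp.

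H3K27me3 lay beside some members but over none. In both treatments 9 of 40 members had an H3K27me3 peak in the window, against 34.7% of all genes in crotonate and 33.8% in control, and no member had it in 1 treatment only (8.58% of all genes did). Each treatment had 11 such peaks, all in the flanks, and 0 members had one over the gene body in either list. The tallest lay beside Cdc45 (chr16:18775080-18779167 in crotonate), with a pileup of 234 in crotonate and 278 in control, and covers the start of Cldn5, an endothelial tight-junction gene. Pole had one beside P2rx2, a purinergic receptor gene, with a pileup of 60 and 84, and a smaller one beside Pxmp2 with 14 and 21. Birc5 had one at Tmem235, with a pileup of 34 in crotonate and 39 in control, and Cdc6 one at Rara, the retinoic acid receptor alpha gene, with 20 and 19. Bub1 had one of 2805 bp in crotonate and 2644 bp in control upstream of its start, with a pileup of 32 and 31, that touched no other gene. The peaks of Pold1 (over Spib), E2f1 (over Necab3), Gins1 and Rrm1 had pileups between 10 and 17. Of the 11 peaks, 2 in crotonate (at Gins1 and E2f1) and 2 in control (at Rrm1 and E2f1) had no partner, against 45.2% and 26.4% of the whole lists.

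The 54 other genes of the cell cycle that were looked up (26 of replication, 8 of cell cycle control and 20 of mitosis) were measured the same way, and all 54 had the 3 active marks in both treatments. Their H3K27ac was narrower past the 0.8 limit at 14 (25.9%) and wider at 5 (9.26%), against 30.5% and 10.5% of all genes. The median log2 ratio was -0.20, against -0.17 for all genes. Ube2c, the ubiquitin-conjugating enzyme of the anaphase-promoting complex, had 1492 bp in crotonate and 2645 bp in control, and Cenpf, a kinetochore protein, 4417 bp and 7290 bp. Rfc1, the large clamp-loader subunit, had 3704 bp in crotonate and 1625 bp in control, and Rfc5 had 2463 bp and 1524 bp. In rank, H3K4me3 was lower past 5 points at 20 of 54 (37.0%) and higher at 3 (5.56%), against 9.88% and 24.6% of all genes. H3K9cr was higher at 16 (29.6%) and lower at 4 (7.41%), against 18.7% and 8.25%. H3K27ac was higher at 12 (22.2%) and lower at 2 (3.70%), against 21.3% and 9.35%, so its share of higher genes was near that of all genes. The median differences were -2.44 points for H3K4me3, 2.99 for H3K9cr and 2.23 for H3K27ac. The pattern of H3K4me3 lower with H3K9cr and H3K27ac higher was found at 19 of 54 (35.2%), against 13.0% of all genes with the 3 marks. An E2F word stood in 8 of the 44 promoters given for them, a CHR word in 17 and a CCAAT box in 23. Of all protein-coding promoters, 2.92%, 16.5% and 39.0% held these.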

How the data were processed

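Peak lists of 8 immunoprecipitated libraries were analysed, each the only one of its mark and treatment, and groups follow the labels. The 2 inputs were not used. The submitters' processing notes name Bowtie2 2.4.1, MACS2 2.2.7.1 and GRCm38, without settings. The deposited pileup, per the file headers, is the coverage signal at a peak's summit, and the deposited fold enrichment is a ratio of it to local background. The deposited p-value and q-value of a summit are on a -log10 scale, and the weakest peaks of every list lay near q = 0.05. All of these come from the authors and served only to describe or rank peaks within a list.

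RefSeq gene positions (GRCm38.p6) were used. Per gene, the widths of all peaks touching the gene body plus 5 kb by 1 bp were summed, and the strongest peak was given its percentile by -log10 q-value. Differences were counted where the smaller width was under 0.8 of the other and past 5 percentile points, beside the same counts over all protein-coding genes. Peaks were shared when 1 bp overlapped a peak of the other treatment. Starts and promoter sequences came from a RefSeq promoter table, and the first listed start of each gene was used. The calculations ran in Python 3.11.15 with numpy 2.4.6, pandas 2.3.3 and matplotlib 3.10.9. Overlaps were checked by a direct search of the control H3K27ac list, and the call of narrower genes on peaks of that list cut by a known amount. The rank measure was not checked in this way.

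The members and lists were chosen with earlier results of these data known. Per active mark, the genes named were the 4 lowest and 2 highest width ratios, the 3 largest differences of rank each way, the 3 with the widest H3K27ac in control and all with H3K27me3. Further members were named after their values were seen. Among 54 other cell cycle genes the 2 lowest and 2 highest H3K27ac ratios were named. The alternatives tried were windows, list lengths, thresholds, ranking measures and overlaps, and 4 were added after the data were seen.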

Additional observations from a re-analysis of the deposited data

How the results depend on the processing

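Of the values recomputed under 14 alternatives planned and 4 added after seeing the data, 189 stayed within 1.5 times the reported count or within the interval of the reported median, and 35 did not. That interval was taken from the spread of values between member genes. Genes of 1 library are not replicates, so it holds no replicate error and serves only as a yardstick for the settings. A change of sign could be scored only for medians whose interval excluded 0, and 0 were found. Counts could not be scored for direction. The counts below are of members only and have no share over all protein-coding genes beside them. They show how the members' own values moved with the setting, and not how the members compare with other genes. Past 1.5-fold, H3K27ac was narrower at 1 member and wider at 0, and H3K9cr narrower at 0 and wider at 2. Past 10 points, H3K4me3 was higher at 0 and lower at 1, H3K9cr higher at 0 and H3K27ac higher at 3. In the stronger 50% of each list, the median rank difference was 7.13 points for H3K9cr (24 higher, 1 lower) and 5.67 for H3K27ac (21 higher, 2 lower), where each point spans fewer peaks, while H3K4me3 was higher at 5 and wider at 1, and 5 members had H3K27me3 in crotonate. With equal numbers of peaks, H3K27ac was lower at 2. With 1 kb of flank, H3K9cr was narrower at 2 and lower in rank at 1, and H3K27me3 stood at 2 members in crotonate and 2 in control. With the gene body alone, H3K9cr was narrower at 2, and H3K27me3 stood at 0 and 0. By the strongest peak only, H3K4me3 was narrower at 3, H3K9cr narrower at 2 and H3K27ac wider at 0, and by the peak at the own start H3K27ac was also wider at 0. Ranked by fold enrichment, H3K4me3 was higher at 7, H3K9cr lower at 4 and H3K27ac lower at 1, and ranked by pileup H3K4me3 was higher at 1. In the 12 members with no other gene in the window and no other start under the strongest peak, the median log2 width ratio of H3K9cr was 0.14. With 50% overlap required, 13 control H3K27ac peaks were unshared. The causes were not tested. No paired analysis was possible because the labels give no replicate numbers and there was 1 library per mark and treatment. No library could be left out for the same reason, and read depth, which limits weak peaks and peak edges, is unknown.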
